A study of Mus musculus with 3 samples.

Results

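Imprinted genes are expressed mainly from the copy inherited from one parent, and 35 of them were examined in the ureteric duct of the mouse embryo at 10.5 days post coitum. They were taken as a list of known imprinted genes and arranged by chromosomal domain and by the parental allele known to be active. The arrays sum the signal of both alleles, so no allele was read. Of the 35, 28 had a probe set of their own among the 19938 genes measured. A further 4, Snrpn, Gnas, Nespas and Mirg, were represented only by probe sets annotated to several genes. H19, Kcnq1ot1 and Zrsr1 were not analysed here.

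The samples were 3 preparations of Hoxb7-GFP-positive cells, all of one group, from CD-1 embryos at Theiler stage 18 that carried the transgene Tg(Hoxb7-EGFP)33Cos. The Hoxb7 promoter drives green fluorescent protein in the nephric duct and its derivatives, and each preparation came from 1 duct that was dissected, dissociated with trypsin and sorted. The labels give the embryos' sex as unknown and name no second tissue, genotype or stage. Separate embryos or litters are not stated for these ducts. The p-values below therefore reflect only how far these 3 samples spread, and that spread may be technical.

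Imprinting is set by DNA methylation laid down in one parent's germ line at control regions, and it is kept through cell division by a small set of zinc finger proteins and DNA methyltransferases. Imprinted genes lie in domains that pair protein-coding genes with long noncoding RNAs of the opposite parental origin. As a class they are known for control of fetal and placental growth. The Igf2 peptide, its clearance receptor Igf2r and the adaptor Grb10 act on one growth pathway, and the cell cycle inhibitor Cdkn1c restrains proliferation.

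Values are log2 signals per probe set, and "above background" means above the 95th percentile of 1210 olfactory and vomeronasal receptor probe sets on the same array, at 5.70, 5.73 and 5.71 on arrays 1, 2 and 3. The test was limma's one-sided test over all 3 arrays with a Benjamini-Hochberg adjusted p under 0.05, called "passing" below. Probe sets differ in affinity, so a signal does not rank one gene's transcript amount against another's. An identical value on all 3 arrays occurred in 6 of the 28 imprinted genes and in 50.8% of all genes, and the deposited table gives no spread for such genes. A further 10 of the 28 had an identical value on 2 of the 3 arrays, so their p-values may also be too small.

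The share of all genes that passed, 56.1%, stands beside each count of markers below. All 13 duct markers passed, with Calb1 at 11.71 and Krt8 at 10.56 (means of 3 arrays). The endothelial markers passed in 12 of 12 cases as well, with Emcn at 10.07 and Cdh5 at 9.10. Mesenchyme and stroma markers passed in 7 of 18 cases (4 without array 3), led by Cited1 at 7.71 and Col1a1 at 6.75. Of other factors on this list, Six2 and Foxd1 did not pass. Wt1, Gdnf and Twist1 did, by 0.32, 0.09 and 0.25 log2 units. Red cell markers passed in 1 of 8 cases (2 without array 1 and 3 without array 3). Hbb-y at 6.93 and Hba-x at 6.90 were highest and did not pass, but they read 10.02 and 8.89 on array 1. Neuronal and neural crest markers passed in 3 of 7 cases, with Erbb3 at 6.96 and Sox10 at 6.40 highest. Macrophage markers passed in 1 of 5 cases (2 without array 1 or array 3), with Cx3cr1 at 6.54 and Cd68, which did not pass, at 6.31, and germ cell markers in 2 of 6, with Kit at 6.93 and Nanos3 at 6.04. The sorted preparations gave signal for endothelial genes beside duct genes, and array 1 also for embryonic globin genes. Fewer cells of a type and less RNA per cell cannot be told apart in such bulk samples.

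Of the 28 imprinted genes with their own probe set, 21 (75%) lay above background, against 56.1% of all genes measured. This list and all others used here were chosen with earlier results of these data known, and no difference in shares was tested. Their median distance from the cutoff was 1.86 log2 units, against 0.32 for all genes. The genes that passed by the widest margin were Mest, Peg10, Igf2, Peg3, Plagl1 and Grb10, whose means lay 3.64 to 5.17 log2 units above the cutoff. Those that did not pass were Rtl1, Rian, Phlda2, Ascl2, Zim1, Usp29 and Mkrn3. By the allele known to be expressed, 12 of 15 paternally expressed and 9 of 13 maternally expressed genes passed, and the difference between these groups was not tested. With the cutoff set at the receptors' 99th percentile 17 passed, against 36.1% of all genes, and the 4 lost were Dlk1, Slc22a18, Kcnq1 and Magel2. With it 1 log2 unit higher 17 also passed, against 28.3% of all genes. A cutoff at the overall 30th percentile gave 25, against 75.3%. In the other alternatives the imprinted count was 21 or 22, apart from 24 of 32 with shared probe sets included. The share of all genes was then 65.5% at the 90th percentile, 53.9% with olfactory receptors alone, 61.6% without dim probe sets, 50.9% with a spread given to tied probe sets and 55% with each gene's lowest probe set. Leaving out array 1, 2 or 3 gave 55.2%, 54.9% and 51.9% of all genes.

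**Figure D1:**
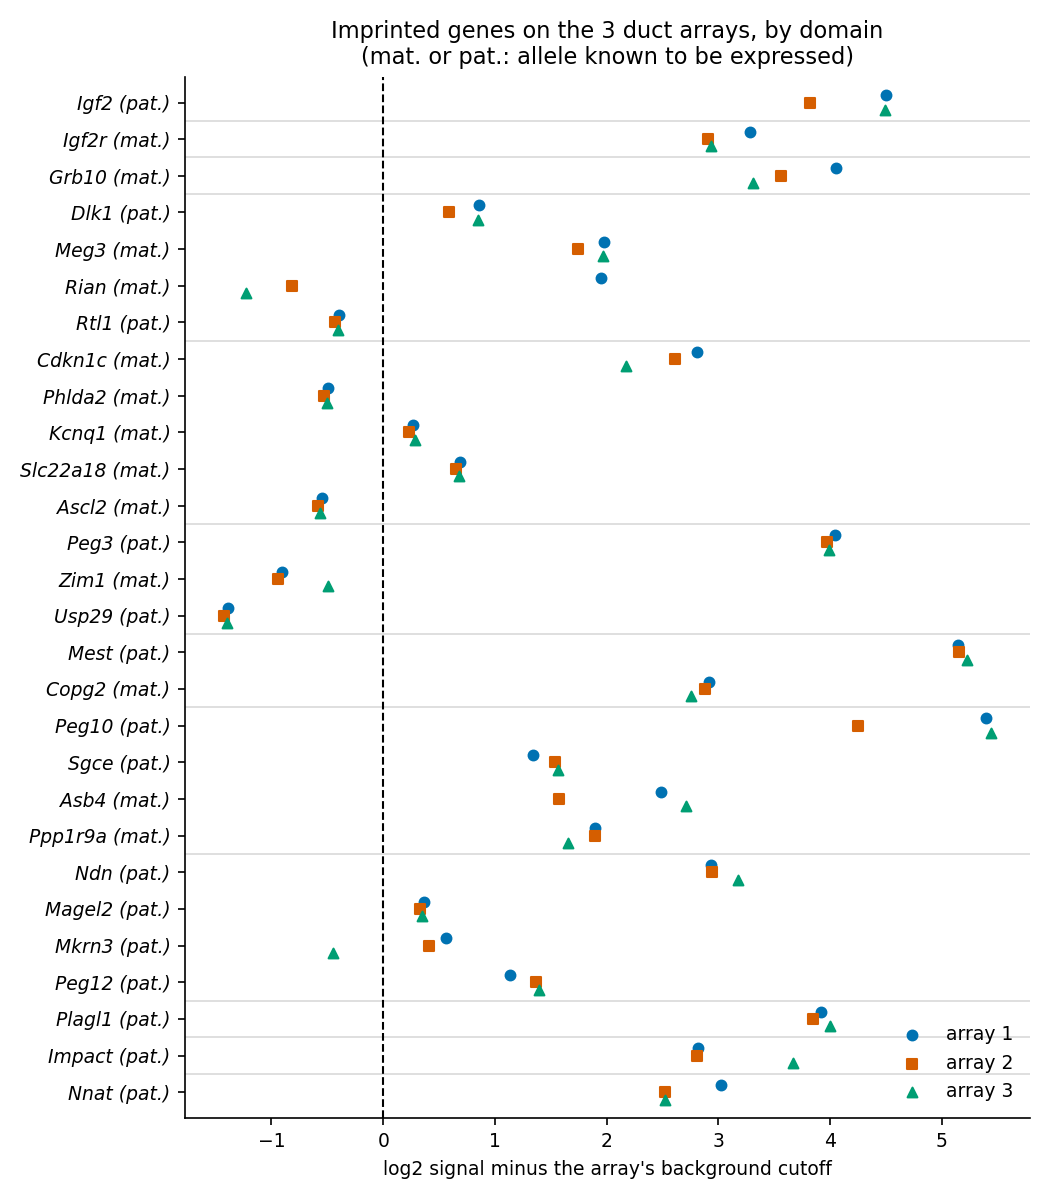
Log2 signal minus the array's background cutoff (horizontal axis) for the 28 imprinted genes with their own probe set, 1 point per array, grouped by domain and marked with the allele known to be expressed. Mest, Peg10, Igf2, Peg3, Plagl1 and Grb10 lie more than 3 log2 units right of the cutoff on every array, while Rtl1, Phlda2, Ascl2, Zim1 and Usp29 lie left of it on every array.

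The growth pathway genes gave signal on every array. Igf2, a fetal growth factor expressed from the paternal allele, read 10.19, 9.55 and 10.19 on arrays 1, 2 and 3, a mean of 4.27 log2 units above the cutoff (limma, Benjamini-Hochberg adjusted p = 0.00018). It was lower on array 2 than on both others. Igf2r, the maternally expressed receptor that takes Igf2 to the lysosome, read 8.98, 8.64 and 8.64 (adjusted p = 8.8e-05). Grb10, an adaptor that dampens insulin and Igf1 receptor signalling, read 9.74, 9.30 and 9.01 (adjusted p = 0.00025), with array 1 highest. Igf2, Igf2r and Grb10 thus all passed, whichever array was left out.

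Other genes of the Igf2 pathway, taken as a list of ligand, receptors, binding proteins, signalling proteins such as Irs1, Pik3ca and Akt1, and regulators such as Hmga2, passed in 17 of 19 cases (89.5%), against 56.1% of all genes. Insr, the insulin receptor gene, read 9.74, 9.69 and 10.23 on arrays 1, 2 and 3. Of the fetal RNA-binding proteins that bind Igf2 messenger RNA, Igf2bp3 read 9.80, 9.54 and 9.53 and Igf2bp1 9.59, 9.10 and 9.74. A second Insr probe set averaged 6.45 and a second Igf2bp1 probe set 8.27, so these signals depend on the probe set. Igfbp3, a secreted binding protein, passed with the widest range of this list, at 6.88, 6.15 and 7.40 (adjusted p = 0.029). Igfbp1 and Igfbp6 did not pass, and Igfbp6 was lowest at 5.55 on every array.

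The Kcnq1ot1 domain was split. Cdkn1c, an inhibitor of cyclin-dependent kinases expressed from the maternal allele, read 8.51, 8.34 and 7.87 on arrays 1, 2 and 3 (mean 2.53 log2 units above the cutoff, adjusted p = 0.00046). The other 4 measured genes of the domain among the 28 gave signals near the cutoff or below it. The potassium channel gene Kcnq1 read 5.97, 5.97 and 5.99, and the transporter gene Slc22a18 read 6.39 on every array; both passed, by 0.26 and 0.67 log2 units. Phlda2, a brake on placental growth, read 5.20 on every array, and Ascl2, a transcription factor of the trophoblast, read 5.14 on every array, and neither passed. Without array 3, Kcnq1 no longer passed (adjusted p = 0.061), in a fit that gave all genes one spread. The exact value of Slc22a18 was held by 8 other probe sets on all 3 arrays, and whether it is specific to the gene was not tested.

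In the Dlk1-Dio3 domain, Meg3, a long noncoding RNA of the maternal chromosome, read 7.67, 7.47 and 7.67 on arrays 1, 2 and 3 (adjusted p = 9.5e-05). Dlk1, a transmembrane relative of the Notch ligands expressed from the paternal chromosome, read 6.55, 6.32 and 6.55 (adjusted p = 0.0015). Both were lowest on array 2. Rtl1, a retrotransposon-derived gene needed by placental vessels, read 5.30 on every array and did not pass. Its value was shared with 26 other probe sets.

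Rian, the noncoding RNA downstream of Meg3, read 7.64, 4.92 and 4.47 on arrays 1, 2 and 3. Only array 1 lay above its cutoff, and the gene did not pass (adjusted p = 0.86). Without array 3 it passed, and its mean distance from the cutoff was then 0.57 log2 units, in the fit that gave all genes one spread. A second probe set, annotated to both Rian and AF357355, ran the other way, at 4.63, 6.72 and 6.44. Array 1 also held the highest embryonic globin signals, with Hbb-y at 10.02, 5.31 and 5.45 and Hba-x at 8.89, 5.97 and 5.84 on the 3 arrays. The summed linear signal of the 8 red cell markers was 1798, 322 and 324 on arrays 1, 2 and 3, and its part in the Rian values was not tested. Mirg, the last noncoding RNA of the domain, shared its only probe set with Mir410, which read 3.78 on every array.

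The Peg3 domain held 1 gene far above background and 2 below it. Peg3, a zinc finger protein gene of the paternal allele, read 9.74, 9.70 and 9.70 on arrays 1, 2 and 3 (4.00 log2 units above the cutoff, adjusted p = 2.7e-06). Usp29, a ubiquitin protease gene that is also paternally expressed, read 4.30 on every array, and Zim1, a maternally expressed zinc finger gene, read 4.79, 4.79 and 5.21. The Usp29 value was held by 19 other probe sets. Peg3 and Usp29 are transcribed away from each other, and their 300-base promoter windows in RefSeq (GRCm38.p6) overlap by 263 bases. The stretch of 163 bases between their annotated starts is shown here because these neighbours gave such different signals. It lies at chr7:6730420-6730582 and is written on the plus strand, 5′ to 3′ towards Usp29, with each CG dinucleotide (the motif searched, CG, which reads the same on both strands) in capitals.
Usp29-Peg3 interval: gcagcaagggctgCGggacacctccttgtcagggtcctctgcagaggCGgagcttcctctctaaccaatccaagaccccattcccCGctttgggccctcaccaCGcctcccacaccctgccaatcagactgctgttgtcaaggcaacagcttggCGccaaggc
The interval holds 5 CG dinucleotides. The Peg3 window as a whole holds 13 and the Usp29 window 17, and 62.1% and 68.6% of the 32851 mouse promoter windows hold fewer. A shared promoter stretch was thus accompanied by signals on opposite sides of the cutoff, each from a different probe set.

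Mest, which encodes a protein with a hydrolase fold and is expressed from the paternal allele in mesoderm, had the largest margin of the 28 genes. It read 10.83, 10.88 and 10.93 on arrays 1, 2 and 3, a mean of 5.17 log2 units above the cutoff (adjusted p = 2.3e-06). The 3 arrays differed by 0.09 log2 units. Copg2, a coatomer subunit gene that neighbours Mest and is reported as maternally biased, read 8.61, 8.61 and 8.46. The 250 bases before the Mest start in its most CG-rich RefSeq window lie at chr6:30737800-30738049 (GRCm38.p6, plus strand) and are given for comparison with the Peg3 interval, with CG in capitals as above.
Mest promoter: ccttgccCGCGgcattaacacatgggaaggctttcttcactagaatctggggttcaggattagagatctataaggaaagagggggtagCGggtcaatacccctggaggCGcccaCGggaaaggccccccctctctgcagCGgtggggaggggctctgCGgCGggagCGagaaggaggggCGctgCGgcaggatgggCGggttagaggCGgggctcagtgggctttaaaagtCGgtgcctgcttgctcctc
This stretch of 250 bases holds 14 CG dinucleotides. The Peg3 interval is shorter, at 163 bases, so the counts of these stretches are not on one scale. The full Mest window of 300 bases holds 17 CG dinucleotides, and the medians below are over such full windows. Over 22 of the 28 genes whose windows were used, taking the richest window of each, the median was 15 in the 16 genes that passed and 18.5 in the 6 that did not. The median over all genes in the table was 8. The count ran between 2 and 48 in genes that passed and between 0 and 26 in those that did not, so the 2 groups overlapped.

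In the Peg10-Sgce domain all 4 genes passed, and 2 of them had ranges over 1 log2 unit. Peg10, a retrotransposon-derived gene needed for placenta formation, read 11.09, 9.98 and 11.15 on arrays 1, 2 and 3 (adjusted p = 0.00051). Asb4, a maternally expressed subunit of a ubiquitin ligase, read 8.18, 7.31 and 8.41 (adjusted p = 0.0033). Both were about 1 log2 unit lower on array 2, by 1.14 for Peg10 and 0.99 for Asb4 against the mean of the other arrays. Sgce, which encodes a sarcoglycan and lies head to head with Peg10, read 7.04, 7.27 and 7.27, and Ppp1r9a, which encodes the actin-binding protein neurabin, read 7.59, 7.63 and 7.36. Neither of these was lowest on array 2, although they belong to the same domain.

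Paternally expressed genes of the Snrpn-Ndn domain passed in 3 of 4 cases. Ndn, a MAGE family gene known from neurons, read 8.63, 8.67 and 8.88 on arrays 1, 2 and 3 (adjusted p = 3.5e-05). Peg12, a relative of the Frat proteins that bind the kinase Gsk3, read 6.83, 7.10 and 7.10 (adjusted p = 0.00030). Magel2, another MAGE family gene, passed at 6.06 on every array, 0.35 log2 units above the cutoff. That value was shared with 17 other probe sets. Mkrn3, a RING finger protein gene, read 6.26 and 6.14 on arrays 1 and 2 but 5.26 on array 3, below the cutoff, and did not pass (adjusted p = 0.46). Without array 3 it passed (adjusted p = 0.00044), again in the fit with one spread for all genes.

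Plagl1, Impact and Nnat each stand in a domain of their own and all are paternally expressed. Plagl1, a zinc finger transcription factor gene, read 9.61, 9.58 and 9.70 on arrays 1, 2 and 3, within 0.12 log2 units (adjusted p = 5.9e-06). Impact, whose product inhibits the stress kinase Gcn2, read 8.51, 8.54 and 9.37, with array 3 high (adjusted p = 0.00081). Nnat, a small membrane proteolipid gene known from neurons, read 8.72, 8.26 and 8.23, with array 1 high (adjusted p = 0.00028). All 3 passed in each alternative run.

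The arrays differed from each other in some of these genes. A range over 0.5 log2 units was found in 6 of the 21 that passed (28.6%), against 13.8% of all genes that passed, and the median range was 0.26 against 0.06 log2 units. Genes with an identical value on every array show no range. They made up 50.8% of all genes measured but 21.4% of the imprinted genes measured, and their part in this comparison was not tested. The 6 imprinted genes with a range over 0.5 log2 units were Igf2, Cdkn1c, Peg10, Asb4, Grb10 and Impact. They did not share one pattern: Igf2, Peg10 and Asb4 were low on array 2, Cdkn1c and Grb10 were lowest on array 3, and Impact was highest there. No test was made of these differences, since each array is a single sample.

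Of the 21 imprinted genes that passed, 5 were lowest on array 1 alone, 6 on array 2 alone and 5 on array 3 alone. The shares of all genes that passed were 10.5%, 13.8% and 19.1%. A gene tied at its lowest value is lowest on no array alone. An identical value on every array was held by 50.8% of all genes measured but by 21.4% of the imprinted genes measured. The part of such ties in these shares was not tested. The 6 imprinted genes lowest on array 2 alone were Igf2, Peg10, Asb4, Meg3, Dlk1 and Plagl1, and all 12 endothelial markers were lowest there too. Plagl1 was lower there by 0.08 log2 units, less than any of these markers. The endothelial median was 8.25, 7.24 and 8.27 on arrays 1, 2 and 3, and the summed linear signal of these markers was 4496, 2521 and 4759. Of the 13 duct markers, 6 were lowest on array 2 alone and 0 on array 1 or array 3 alone, while 5 held 1 value on all arrays. The duct median was 8.32 on each array, which is the value of Cdh1, a gene tied on all arrays, so it says little about differences between arrays. The summed signals of the duct markers were 9221, 8127 and 8411. The part of endothelial RNA in the imprinted gene values was not tested. Without array 2, the distance from the cutoff was 4.49 log2 units for Igf2, 5.42 for Peg10 and 2.60 for Asb4, and all 3 passed.

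**Figure D2:**
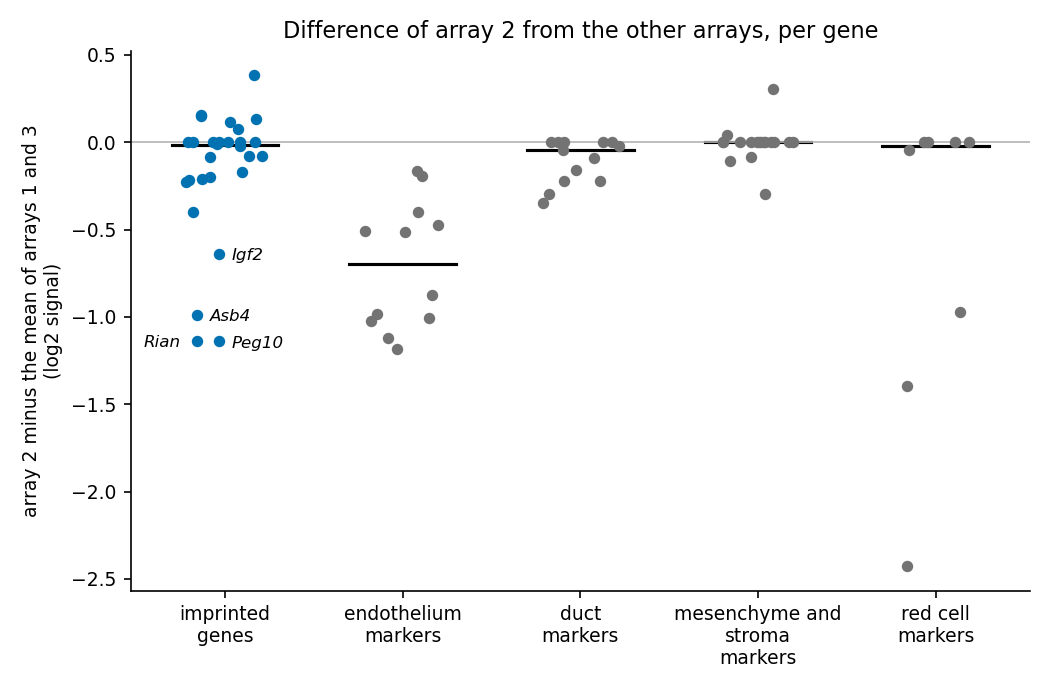
Log2 signal on array 2 minus the mean of arrays 1 and 3, 1 point per gene with the list median as a line, for the 28 imprinted genes and 4 marker lists. Igf2, Asb4 and Peg10 lie at -0.64, -0.99 and -1.14, in the range of the 12 endothelial markers, which all lie below 0.

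Among other known imprinted genes, outside the 35, 23 of the 42 measured lay above background, a share of 54.8% beside 56.1% for all genes. Slc38a4, an amino acid transporter gene, read 9.98 on every array. Nap1l4, a histone chaperone gene of the Kcnq1ot1 domain, read 9.75, 9.62 and 9.52, and Cd81, a tetraspanin gene of the same domain, read 9.86, 9.18 and 9.63. Qpct was lowest at 4.13 on every array. The share of this wider set lay near that of all genes.

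Factors that act on imprints or DNA methylation, Tet1, Tet2 and Tet3 among them, passed in 23 of 26 cases (88.5%), against 56.1% of all genes. The highest signals were those of Ezh2, the histone methyltransferase of Polycomb complexes, at 10.67, 10.67 and 10.49, of the chromatin remodeller gene Atrx at 10.06 on every array, and of Hells, a helicase gene of DNA methylation, at 9.65, 10.03 and 10.30. Dppa3, an oocyte and germ line protector of methylation, was lowest, at 4.26, 5.01 and 4.26, and did not pass. Ctcfl and Dnmt3l, both known from germ cells, were the other 2 that did not pass. Among factors named after their values were seen, the maintenance methyltransferase gene Dnmt1 read 9.75, 10.05 and 10.18 and the imprint-binding zinc finger gene Zfp57 7.12 on every array.

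**Figure D3:**
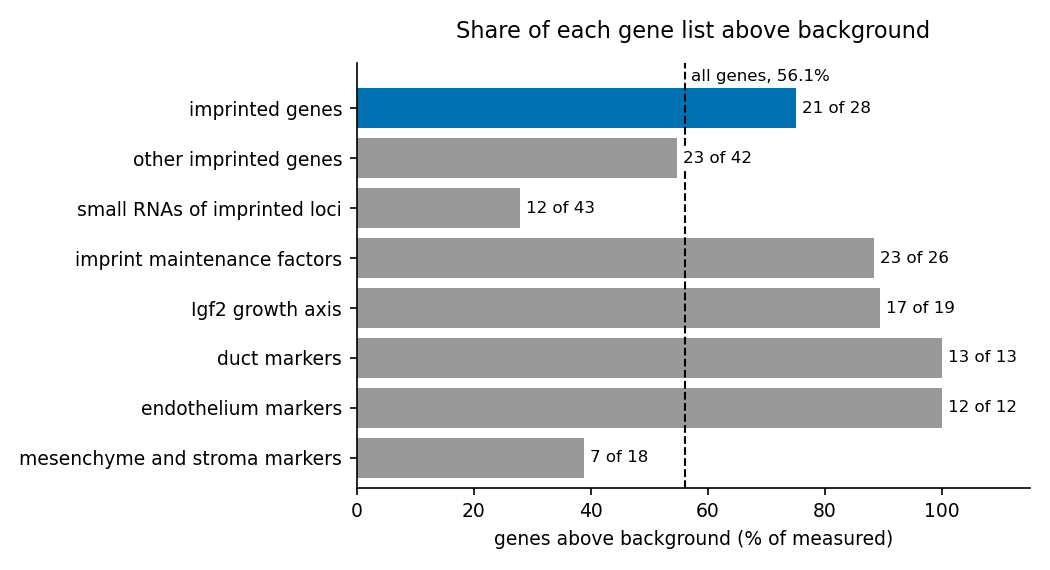
Percent of the measured genes of each list that lay above background, with the number that passed beside each bar and the share of all genes, 56.1%, as a dashed line. The imprinted genes stand at 21 of 28 and the small RNAs of imprinted domains at 12 of 43.

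Imprinted domains hold many microRNAs, within noncoding RNAs and within some protein-coding genes. Their hairpins have probe sets of their own, which read the precursor or host RNA and not the mature form. Of 43 measured, 12 (27.9%) passed, against 56.1% of all genes. The highest were Mir667 at 8.38 on every array, Mir341, inside Rian, at 7.49, 7.49 and 7.51, and Mir483, inside Igf2, at 7.44, 7.56 and 7.44. Mir376c was lowest at 2.38 on every array. Of the 39 on chromosome 12, in the Dlk1-Dio3 domain, 9 passed; this included 5 of the 8 within the annotated span of Rtl1 and 0 of the 7 within Mirg. The test behind the 0 of 7 was limma's, and the means of those 7 all lay at least 0.74 log2 units below the cutoff. Of the 5 within the Rtl1 span, Mir337 and Mir127 passed by only 0.19 and 0.20 log2 units. The exact values of Mir337 and Mir431 were held by 71 and 19 other probe sets. Mir335, inside Mest, read 6.27, 7.08 and 6.27 and passed (adjusted p = 0.024).

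The mature sequences of 6 of the 12 hairpins that passed are given from RefSeq (GRCm38.p6), 5′ to 3′, with the seed (bases 2 to 8) in capitals. They are the 3 with the highest signals, Mir335 as the hairpin inside Mest, and Mir127 and Mir431 as examples of the 5 within Rtl1. Of the genes whose annotated spans cover these hairpins, Mest and Igf2 passed, while Rian and Rtl1 did not. Spans were matched by position and not by strand, so a hairpin need not come from the transcript of the gene that spans it.
mmu-miR-667-5p: cGGUGCUGguggagcagugagcacg
mmu-miR-667-3p: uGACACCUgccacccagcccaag
mmu-miR-341-5p: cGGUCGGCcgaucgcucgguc
mmu-miR-341-3p: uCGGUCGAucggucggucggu
mmu-miR-483-5p: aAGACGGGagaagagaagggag
mmu-miR-483-3p: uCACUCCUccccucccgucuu
mmu-miR-335-5p: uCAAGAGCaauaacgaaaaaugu
mmu-miR-335-3p: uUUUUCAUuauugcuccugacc
mmu-miR-127-5p: cUGAAGCUcagagggcucugau
mmu-miR-127-3p: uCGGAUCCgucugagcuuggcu
mmu-miR-431-5p: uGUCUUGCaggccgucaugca
mmu-miR-431-3p: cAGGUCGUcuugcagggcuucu
Among the 24 mature forms of the 12 hairpins that passed, 0 seeds were shared.

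The signal of these microRNA probe sets moved with the base composition of the hairpin. Hairpins that passed had a median GC content of 59.9%, against 42.3% for the 31 that did not. Across the 43 hairpins, which share the arrays and differ in sequence, Pearson's r between GC content and mean signal was 0.85 and Spearman's rho 0.84, given as a description. Mir335 at 42.9% GC and Mir679 were the only 2 that passed with under 50% GC, against 24 of the 31 that did not pass. The part of base composition in the calls was not tested.

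**Figure D4:**
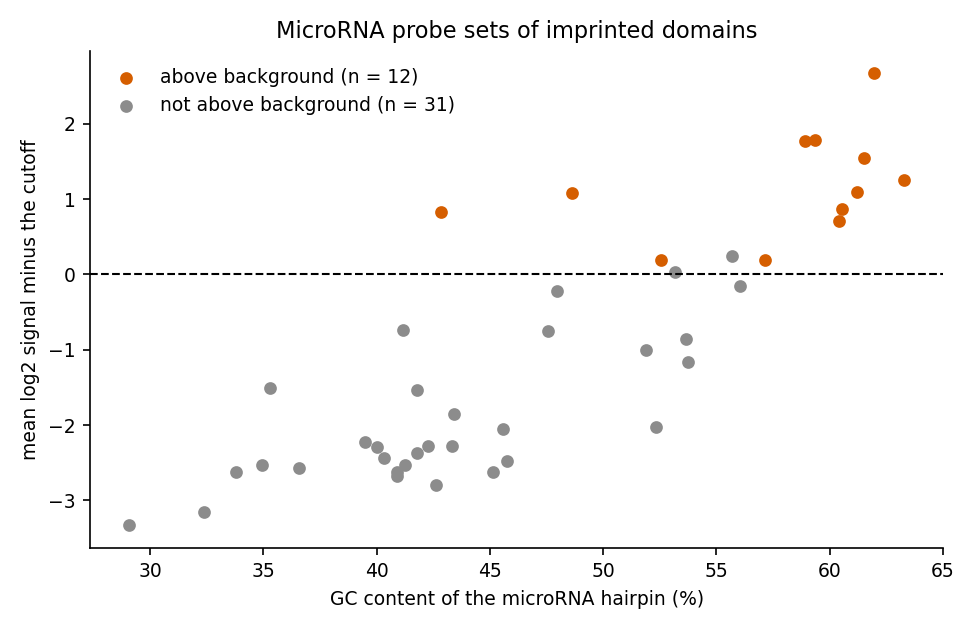
Mean log2 signal minus the mean cutoff (vertical axis) against GC content of the hairpin in percent (horizontal axis) for 43 microRNA probe sets of imprinted domains, with the 12 that passed in orange and the 31 that did not in grey. Signals are higher at higher GC content, and 9 of the 12 that passed have a GC content above that of every hairpin that did not.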

How the data were processed

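Gene expression in 3 duct samples of one group was read from 1 array each. The authors deposited 1 value per probe set and array for 35557 probe sets, read here as log2 signals from their range of 1.90 to 14.2 and array medians of 5.85 to 5.90. RNA was amplified in 1 round with a NuGEN kit, per the labels. The submitters' processing notes name Affymetrix Expression Console, and the sources used here do not give its algorithm, background correction or genome build. The platform annotation gave 1 symbol to 21789 probe sets, several to 1621 and none to 12147. By Entrez number, 21698 of the single-symbol probe sets matched the GRCm38.p6 gene table. A gene took its single-symbol probe set with the highest mean.

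Each array's cutoff was subtracted, and limma 3.58.1 under R 4.3.3 fitted 1 mean per probe set, moderated by empirical Bayes (1.13 prior degrees of freedom). The one-sided p was Benjamini-Hochberg adjusted over the 21789 probe sets. Of the receptor probe sets, 53 of 1210 passed. For a gene with 1 value on all arrays, the only spread comes from moderation and the 3 cutoffs, which makes its p too small. A tie on 2 arrays, as in 10 of the imprinted genes, may also make p too small. The alternative that gave a spread to tied probe sets set it only where all arrays held 1 value. The test was also run on simulated data, in which every probe set had the same spread and none had tied values. That run cannot judge the p-values of genes with 1 value on all arrays, nor calls of genes just below the cutoff. The imprinted genes and all lists were chosen with earlier results of these data known. All measured imprinted genes are named; of each related list the 3 highest, the 1 lowest and those that passed with a range over 1 log2 unit; of each marker list the 2 highest. Six2, Foxd1, Igfbp1, Irs1, Pik3ca, Akt1, Hmga2, Ctcfl, Dnmt3l, Dnmt1 and Zfp57 were named after their values were seen. So were Wt1, Gdnf, Twist1, Cdh1, Tet1, Tet2, Tet3, Mir335, Mir337, Mir127, Mir431 and Mir679. The number of arrays limits the precision.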

Additional observations from a re-analysis of the deposited data

Results flagged for a closer look

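Probe sets annotated to several genes were left out of the test. Of those annotated to at least 1 gene of an imprinted domain, 4 lay above the cutoff on all 3 arrays, a signal in data that the comparisons did not use. The probe set of Snurf and Snrpn, which encode a splicing protein and its upstream reading frame, averaged 8.53 (8.39, 8.39 and 8.81 on arrays 1, 2 and 3). That of Gnas and Gnasas1, the current symbol of Nespas, averaged 8.53 (8.61, 8.39 and 8.60), and the sense and antisense genes cannot be told apart in it. The probe set of Mir675 and Supt6 averaged 9.98 (9.84, 9.55 and 10.56), and these 2 genes cannot be told apart in it either. That of Mir433 and 6430411K18Rik read 5.74 on every array, 0.03 log2 units above the mean cutoff. Other shared probe sets of these domains went the other way: 24 annotated to Snord116 copies lay above the cutoff on 0 arrays, with means of 3.99 to 4.42, that of Mirg and Mir410 lay above it on 0 arrays, and that of Rian and AF357355 on 2.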

How the results depend on the processing

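No paired analysis was possible because the series has 1 group. Of the 28 imprinted genes, 19 kept their call in all 13 alternatives, 17 of which passed. The count of 21 was 17 at the 99th percentile and also 17 with a cutoff 1 log2 unit higher, 25 with a cutoff at the overall 30th percentile, 24 (of 32) with probe sets of several symbols, chosen after seeing the data, where 1 probe set stood for both Gnas and Nespas, and 21 to 22 when an array was left out. Distances turned below the cutoff at the 99th percentile for Kcnq1 (-0.40) and Magel2 (-0.32), and with the raised cutoff for Dlk1 (-0.24), Kcnq1 (-0.74), Slc22a18 (-0.33) and Magel2 (-0.65), by construction of the higher cutoff. With the 30th percentile, Rtl1 (0.32), Phlda2 (0.22) and Ascl2 (0.16) turned above it and passed. Leaving out an array moved Rian between -1.02 and 0.57, above the cutoff without array 3. The mesenchyme count of 7 was 3, 1 and 11 at these 3 cutoffs and 4 without array 3 or with a spread given to tied probe sets. Other imprinted genes passed in 15 of 42 cases at the 99th percentile, 13 with the raised cutoff and 36 with the 30th percentile, against 23. At these 3 cutoffs 36.1%, 28.3% and 75.3% of all genes passed, against 56.1% with the main cutoff. The small RNA count of 12 was 6 with the raised cutoff. Signal over background limits these counts, which follow the cutoff.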
